A study of Mus musculus with 17 samples.

Results

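Eif1a and Eif1ax are the mouse genes for translation initiation factor eIF1A, and on the Affymetrix MG-U74Av2 array each was annotated to 2 probe sets that gave unlike courses over preimplantation development. They were 2 of 8251 genes with a probe set of 1 symbol, and all 4 probe sets that the platform's annotation pairs with either of them are described, of 12488 on the array: 93058_at and 103708_at for Eif1a, and 93358_at and 160111_at for Eif1ax. The genes were taken up because of how these probe sets behaved on these same arrays, so their levels are given as a description, without a test. Of the 17 samples in the series, each on its own array, 4 were oocytes and 3 were blastocysts, and cleavage embryos gave 3 samples at the 1-cell, 3 at the 2-cell and 4 at the 8-cell stage. Total RNA of every sample went through 2 rounds of in vitro transcription, per the labels. The labels named no strain, genotype, treatment, age or oocyte maturation stage, and did not say how many embryos a sample held or whether samples came from separate animals, so the spread between samples may be technical.

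eIF1A binds the small ribosomal subunit beside eIF1, helps to load the eIF2, GTP and initiator tRNA complex, and takes part in scanning to the start codon. Its tail then contacts eIF5B when the large subunit joins. Eif1ax is the X-linked gene, and Eif1a is a separate gene of the same family. In the mouse the oocyte and 1-cell embryo rely on stored maternal mRNA, and the main activation of the embryo's genome comes at the 2-cell stage.

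Values are linear signal intensities that the authors had scaled array by array. The arrays therefore have nearly the same mean signal, so a signal stands for a share of the RNA on its array. The amount of RNA per embryo cannot be read from it. A change is a difference of mean log2(signal + 10.7), where 10.7 is the 25th percentile of all values; this scale understates the change of dim probe sets. To be tested, a probe set needed 3 arrays with a signal over 41.1 (the median of the whole table), and 8067 passed. All 4 members passed, with signals above 41.1 on 10 arrays for 93058_at, 8 for 103708_at, 17 for 93358_at and 7 for 160111_at. The table held no detection calls, so a fold against a stage below 41.1 depends on the offset.

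Oocyte and blastocyst arrays carried their defining markers, while no list marked the 1-cell stage. The summed signal of 7 oocyte markers lay between 31032.6 and 32663.8 on oocyte arrays and between 205.4 and 284.0 on blastocyst arrays, and that of 7 late embryo markers lay between 9464.8 and 10896.4 on blastocyst arrays and between 347.6 and 546.8 on oocyte arrays. Of 42 marker genes on the array, none was listed at 0 on any array. Across tested probe sets, the correlation of arrays within a stage was 0.934 to 0.979, and the closest arrays of different stages stood at 0.891. A single array stood apart by markers of oviduct and uterus: their summed signal on 8-cell array 2 was 7601.4, against 337.2 to 2093.3 on the other 16 arrays. Without it the changes from 2-cell to 8-cell were 1.80 (93058_at), 2.90 (103708_at), 0.62 (93358_at) and 1.98 (160111_at), and those from 8-cell to blastocyst -0.73, 0.26, -0.60 and -0.25 in the same order, close to the values with all arrays.

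Eif1a at 93058_at was dim in oocytes and 1-cell embryos and bright from the 2-cell stage on. The signals were 32.4, 14.0, 17.8 and 13.0 on the 4 oocyte arrays and 7.6, 13.3 and 9.4 on the 1-cell arrays. On the 2-cell arrays they were 382.3, 468.1 and 479.3. All 3 of these lay far above every oocyte and 1-cell array. The 8-cell arrays gave 1399.4, 1451.1, 1634.8 and 1673.2, and the blastocyst arrays 946.0, 915.5 and 963.0. Ordered by mean, the 8-cell stage (1539.6 ± 134.7, SD, n = 4) stood above the blastocyst (942 ± 24.1, n = 3), the 2-cell stage (443 ± 53.1, n = 3), the oocyte (19.3 ± 8.97, n = 4) and the 1-cell stage (10.1 ± 2.91, n = 3). Only the last neighbours in that order, oocyte and 1-cell embryo, had overlapping arrays.

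On the log2 scale 93058_at changed by -0.49 ± 0.19 (SE) from oocyte to 1-cell, 4.45 ± 0.20 from 1-cell to 2-cell, 1.77 ± 0.19 from 2-cell to 8-cell and -0.70 ± 0.19 from 8-cell to blastocyst. The last of these turned to 0.46 when arrays were scaled by their hybridisation spikes. The 2-cell step was among the largest on the array, with a larger rise at 0.955% of tested probe sets. Oviduct and uterus markers moved with it: the summed signal of all 7 listed genes was 645.7 to 866.8 on 1-cell and 1475.9 to 2093.3 on 2-cell arrays, with none at 0, mostly through the oviduct glycoprotein Ovgp1 (28.8 to 56.4 and 688.1 to 1271.8). The 4 blood markers on the array summed to 70.9 to 134.4 on 1-cell and 199.4 to 285.1 on 2-cell arrays, and the 7 sperm markers to 302.9 to 384.6 and 401.8 to 441.0. At the same step the control probe sets for 18S ribosomal RNA changed by -4.23 to -2.42 and the spikes by -0.23 on average. The part of these in the Eif1a signal was not tested. On 8-cell array 2 Ovgp1 reached 6212.4, and 93058_at there (1451.1) lay within the range of the other 8-cell arrays. That is 1 array of a later stage, where 93058_at was already bright, and it does not bear on the 2-cell step.

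Eif1a at 103708_at stayed dim through the 2-cell stage and rose at the 8-cell stage. The signals were 8.0, 29.3, 35.0 and 19.2 on oocyte arrays, 9.8, 28.7 and 29.8 on 1-cell arrays and 27.3, 65.7 and 32.6 on 2-cell arrays. These 10 arrays overlapped, and 1 of them, 2-cell array 2, lay above 41.1. The 8-cell arrays gave 431.2, 289.0, 418.2 and 264.1, and the blastocyst arrays 478.2, 433.9 and 400.2, all above every earlier array. Ordered by mean, the blastocyst (437 ± 39.1, n = 3) came before the 8-cell stage (351 ± 86.3, n = 4), with overlapping arrays, and then the 2-cell stage (41.9 ± 20.8, n = 3), the oocyte (22.9 ± 11.9, n = 4) and the 1-cell stage (22.8 ± 11.2, n = 3), which overlapped one another. The consecutive changes were 0.01 ± 0.31, 0.65 ± 0.33, 2.82 ± 0.31 and 0.34 ± 0.31.

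**Figure D1:**
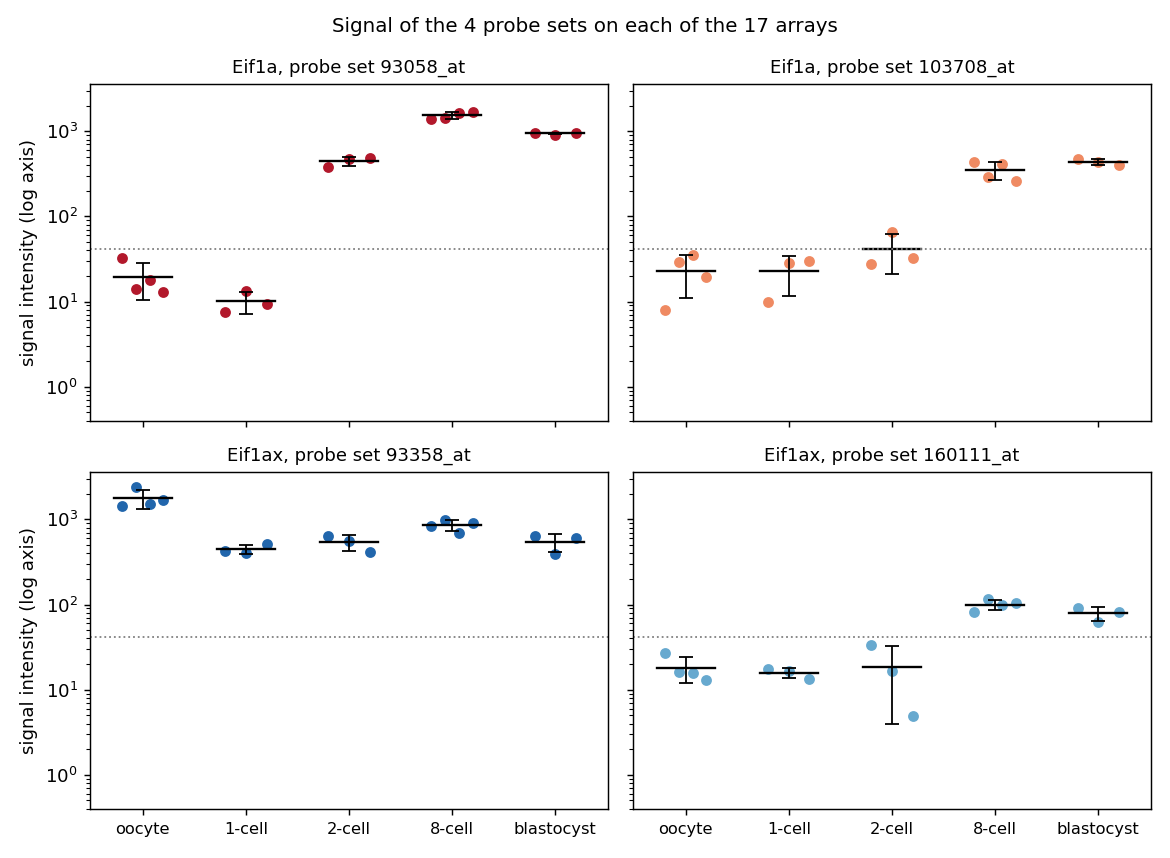
Signal intensity (log axis) of each of the 4 probe sets by stage. Points are the 17 arrays, the wide bar is the stage mean, the whiskers are 1 SD, and the dotted line marks the signal of 41.1 used as a filter. Probe set 93058_at of Eif1a is above the line from the 2-cell stage, 103708_at of Eif1a and 160111_at of Eif1ax from the 8-cell stage (1 2-cell array of 103708_at apart), and 93358_at of Eif1ax at every stage, with its highest signals in oocytes.

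The 2 probe sets of Eif1a thus disagreed on the step at which the gene rose. Between the 1-cell and 2-cell stages their changes of 4.45 and 0.65 were 3.80 apart, and the gap lay between 3.61 and 4.07 with each array left out in turn. With an offset of 1 the gap was 4.45 and with the median of all values as offset 2.87. Among 1032 genes with at least 2 tested probe sets, the gap between the 2 brightest had a median size of 0.55 and an upper quartile of 1.12 at this step, and 12 genes (1.16%), Eif1a included, had a gap of at least 3.80. Without the filter on dim signals there were 15 of 2073 genes.

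At the later steps the probe sets of Eif1a differed less. From the 2-cell to the 8-cell stage both rose, 93058_at by 1.77 and 103708_at by 2.82, and 293 of the 1032 genes (28.4%) had a gap of that size or more. From the 8-cell stage to the blastocyst the values were -0.70 and 0.34, a gap equalled or passed by 185 genes (17.9%). Over the whole course from oocyte to blastocyst both were higher, by 5.03 ± 0.19 and 3.81 ± 0.31. Over the 17 arrays the pair correlated at a Pearson r of 0.86 and a Spearman rho of 0.76, above the median r of 0.62 for the 1032 genes; the arrays share their stages, and genes are not independent replicates.

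Eif1ax at 93358_at was bright at every stage and highest in oocytes. The signals were 1440.8, 2395.9, 1521.1 and 1688.3 on oocyte arrays, and 424.7, 402.7 and 513.1 on 1-cell arrays. The 2-cell arrays gave 635.7, 558.5 and 412.6. Every oocyte array lay above every array of the other stages. The 8-cell arrays gave 842.9, 982.1, 701.8 and 912.9, and the blastocyst arrays 640.1, 393.5 and 599.9. The means fell in the order oocyte (1762 ± 435.3, n = 4), 8-cell (859.9 ± 119.8, n = 4), blastocyst (544.5 ± 132.3, n = 3), 2-cell (536 ± 113.3, n = 3) and 1-cell (447 ± 58.4, n = 3). Blastocyst and 2-cell arrays overlapped, as did 2-cell and 1-cell arrays.

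The consecutive changes of 93358_at were -1.93 ± 0.20, 0.24 ± 0.22, 0.68 ± 0.20 and -0.67 ± 0.20. Its signal in 1-cell embryos was 3.94-fold below that in oocytes by the stage means, and 3.83% of tested probe sets had a larger drop on the log2 scale. In the same comparison, control probe sets for 18S ribosomal RNA were 4.41 to 5.75 higher and the hybridisation spikes, added in a fixed amount, 1.12 higher on average; their part in the lower signal was not tested. Scaled on those spikes, 93358_at changed by -3.03 from oocyte to 1-cell, by 0.05 from 2-cell to 8-cell and by 0.49, in the other direction, from 8-cell to blastocyst.

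Eif1ax at 160111_at was dim up to the 2-cell stage, with signals of 27.2, 16.2, 15.8 and 13.1 on oocyte arrays, 17.6, 16.7 and 13.3 on 1-cell arrays and 33.7, 16.8 and 4.9 on 2-cell arrays. The 8-cell arrays gave 80.7, 115.2, 100 and 104.1, and the blastocyst arrays 90.8, 62.6 and 82.2. Every array of these 2 late stages lay above every earlier array. The 8-cell mean (100 ± 14.4, n = 4) and the blastocyst mean (78.5 ± 14.5, n = 3) had overlapping arrays, and so did the 2-cell (18.5 ± 14.5, n = 3), oocyte (18.1 ± 6.24, n = 4) and 1-cell means (15.9 ± 2.27, n = 3). The consecutive changes were -0.10 ± 0.29, 0.01 ± 0.31, 2.04 ± 0.29 and -0.31 ± 0.29, the last of which turned to 0.72 with the spike scaling. No array of this probe set reached 152.5, the 75th percentile of all values.

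The probe sets of Eif1ax parted over the whole course. Between oocytes and blastocysts 93358_at changed by -1.68 ± 0.20 and 160111_at by 1.64 ± 0.29, in both cases without overlap of the arrays. The second value depends on the offset, and was 2.09 with an offset of 1 and 1.01 with the median of all values, where the gap was -2.63. Over the 1032 genes, 43 (4.17%) had their 2 brightest probe sets without overlap in opposite directions in this comparison, and 37 (3.59%) had a gap of at least the 3.32 seen for Eif1ax, against a median gap of 0.63. At the step from oocyte to 1-cell the gap was 1.84, a size that 36 genes (3.49%) reached, with a median of 0.42. From the 1-cell to the 2-cell stage it was 0.23, below the median of 0.55. Over the 17 arrays the pair correlated at a Pearson r of -0.02 and a Spearman rho of 0.08, and 161 of the 1032 genes (15.6%) had a lower r.

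**Figure D2:**
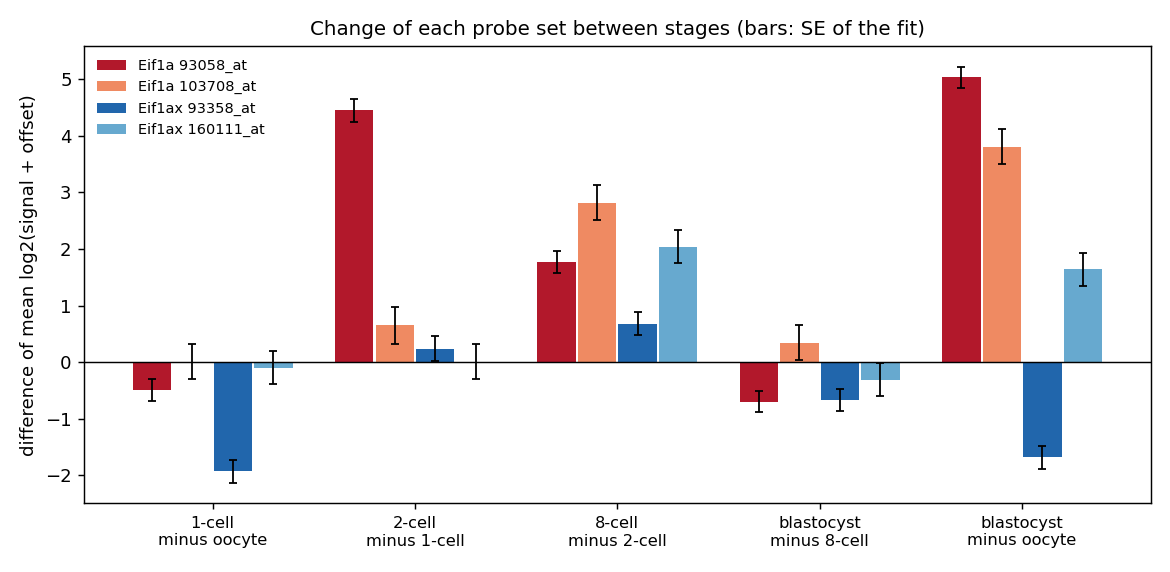
Difference of mean log2(signal + 10.7) between stages for the 4 probe sets, with the SE of the linear model fitted over all 17 arrays as error bars. The Eif1a pair differs most at 2-cell minus 1-cell (4.45 and 0.65), and the Eif1ax pair takes opposite signs at blastocyst minus oocyte (-1.68 and 1.64). The bars below 0 at blastocyst minus 8-cell turn above 0 with the spike scaling.

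How a gene's probe sets were joined decided what the gene appeared to do. Represented by its brightest probe set, Eif1a changed by 4.45 from 1-cell to 2-cell, and by the mean of both by 2.55. For Eif1ax in blastocysts against oocytes the brightest probe set gave -1.68 and the mean of both gave -0.02. From 2-cell to 8-cell the mean rule gave 1.36 for Eif1ax against 0.68 at its brightest probe set.

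Counted without regard to gene, the 4 probe sets shared 1 step. From the 2-cell to the 8-cell stage all 4 had higher arrays with no overlap, where 24.7% of the 8067 tested probe sets did and 27.0% were lower. The change of 93358_at in this count was 0.05 with the spike scaling. Signals above 41.1 came only from 8-cell and blastocyst arrays for 160111_at, and from these and 2-cell array 2 for 103708_at. These 2 passed the filter through the stages where they were high, so their part in this count was favoured in advance. From oocyte to 1-cell 1 of 4 was lower without overlap (22.9% of all tested) and none was higher (23.1%). From 1-cell to 2-cell 1 of 4 was higher (29.1%) and none was lower (24.8%). From 8-cell to blastocyst 2 of 4 were lower (21.2%), although the spike scaling turned the sign of both, and none was higher (22.2%). From oocyte to blastocyst 3 of 4 were higher (32.7%) and 1 was lower (33.7%). The 3 higher ones had no oocyte or 1-cell array above 41.1, so they passed the filter only through later stages.

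Across the gene boundary, the 2 probe sets that rose late had similar courses by Pearson r. Both passed the filter through the stages where they were high, so a high r was favoured in advance. An r above 0.9 was common, found for 225 genes with 103708_at and 63 with 160111_at. Probe set 103708_at of Eif1a and 160111_at of Eif1ax correlated at a Pearson r of 0.88 over the 17 arrays (Spearman rho 0.59), and 93058_at and 160111_at at 0.78 (rho 0.80). Probe set 93358_at of Eif1ax had an r of -0.27 with 93058_at and -0.19 with 103708_at. These values describe 17 arrays that fall into 5 stages. The sequences of the probes were not used here, so which transcripts each probe set detects was not examined; all 4 names end in a plain _at, without the letter by which the platform marks shared or dropped probes.

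**Figure D3:**
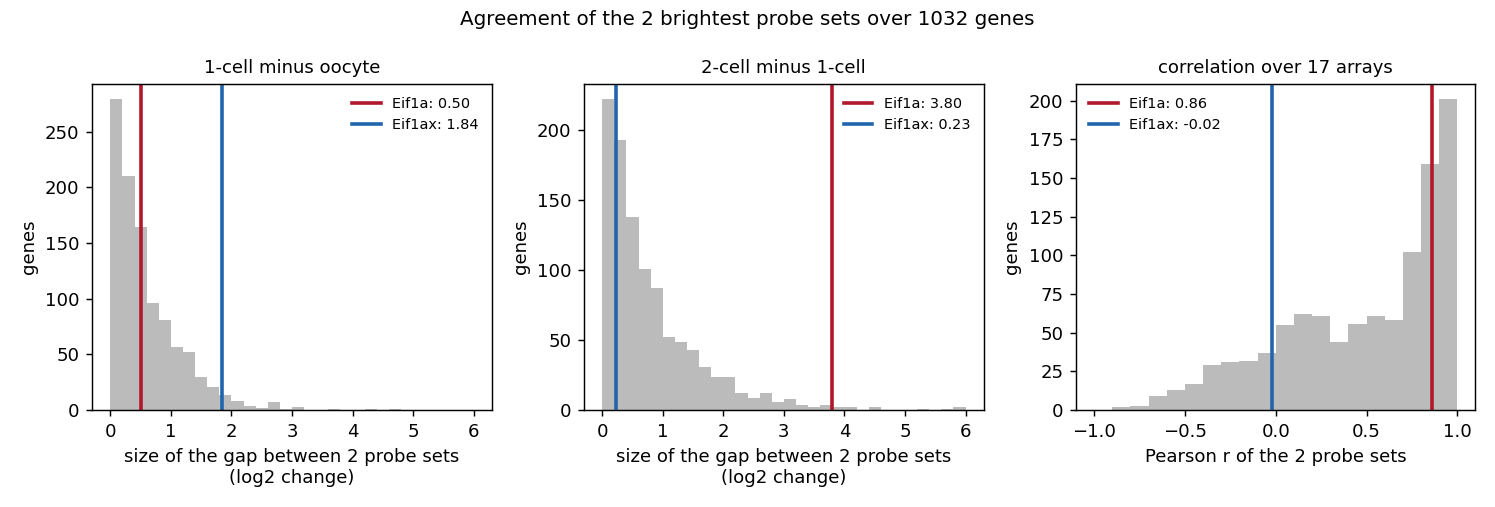
Agreement of the 2 brightest tested probe sets over 1032 genes. The left and middle panels count genes by the size of the gap in log2 change between the 2 probe sets, for 1-cell minus oocyte and 2-cell minus 1-cell, and the right panel by Pearson r over the 17 arrays; lines mark Eif1a and Eif1ax. Eif1a lies in the far tail of the middle panel (3.80) with a high r (0.86), and Eif1ax in the tail of the left panel (1.84) with an r near 0 (-0.02).

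The array carries probe sets for the 3′ and 5′ parts of control transcripts, whose difference grows as the amplified RNA gets shorter. The 3′ probe set of beta-actin exceeded its 5′ probe set by 1.67 to 2.50 on the log2 scale on 1-cell arrays and by 1.62 to 2.26 on 2-cell arrays. For Gapdh the same difference was 2.23 to 2.26 on 1-cell and 2.43 to 3.04 on 2-cell arrays. The 2 controls differed at the later stages: on 8-cell arrays the difference was 1.79 to 2.07 for beta-actin and 0.22 to 1.56 for Gapdh, and on blastocyst arrays 0.95 to 1.24 for beta-actin and 2.38 to 2.88 for Gapdh. The part of RNA length in the unlike courses was not tested.

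The genes whose courses were most like each probe set differed between the probe sets of a gene. Over the 17 arrays and 7244 other tested probe sets, 93058_at of Eif1a was nearest to Folr1, a folate receptor (r = 0.995, at a probe set marked as shared within a family), the homeobox gene Crxos (0.994), the haem-regulated transcription factor gene Bach1 (0.994) and the tetraspanin gene Cd63 (0.993). Probe set 103708_at was nearest to Eif4ebp1, an inhibitor of the cap-binding factor eIF4E (0.970), the folate transporter gene Slc46a1 (0.970), Gmppb, an enzyme of GDP-mannose synthesis (0.970), and the phospholipase gene Plcd1 (0.967). The mean signal of Eif4ebp1 was 54.0 in 2-cell embryos, 372 in 8-cell embryos and 609 in blastocysts.

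For Eif1ax, 93358_at was nearest to Taf1b, a factor of RNA polymerase I (0.907), the mitochondrial import gene Timm9 (0.901), Epb41l4a (0.893) and the mitochondrial ribosomal protein gene Mrps22 (0.893). Probe set 160111_at was nearest to the cyclophilin gene Ppic (0.95), the pantetheinase gene Vnn1 (0.949), the phosphatase gene Ppp6c (0.942) and Reep1, which shapes the endoplasmic reticulum (0.941). A correlation above 0.9 was found for 424 genes with 93058_at, 225 with 103708_at, 63 with 160111_at and 2 with 93358_at. These names depend on the measure: ranked by Spearman's rho, 0 of the 4 genes stayed among the nearest 4 of 93058_at, 103708_at and 160111_at, and 2 of 4 for 93358_at.

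Eif1a at 93058_at did not share the fall that some genes of 2-cell activation showed after that stage. Tcstv1 and Tcstv3 had mean signals of 2060 and 1372 in 2-cell embryos and 56.1 and 47.4 in 8-cell embryos, and the deubiquitinase gene Usp17la had 113.4 and 10.6. Pramel6, Pramel7 and Crxos were higher in 8-cell embryos, as 93058_at was, with log2 changes of 1.23, 1.11 and 2.14. Crxos also had a second probe set, with changes of 4.11 from 1-cell to 2-cell and 0.66 from 2-cell to 8-cell, against 7.21 and 2.14 at the brighter one.

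The partners of eIF1A on the ribosome each took a course of their own. Of the 5 listed, 3 were measured: Eif1b, a homologue of the start codon factor eIF1; Eif5, which activates the GTPase of eIF2; and Eif5b, the GTPase of subunit joining. These were tested with limma, with p-values adjusted over all tested probe sets of a comparison, and 1 probe set stood for a gene. Eif1b had a mean signal of 2898 in oocytes and 444.9 in blastocysts, and fell by 1.16 ± 0.18 at the 2-cell step (adjusted p = 1.12e-05) and by 1.66 ± 0.17 at the 8-cell step (2.56e-08). The arrays scaled on the spikes gave Eif1b -0.87 at the 1-cell step, where the deposited scaling gave 0.24 (adjusted p = 0.286), and 1.05 from 8-cell to blastocyst, where it gave -0.10 (0.678).

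Eif5 rose by 0.86 ± 0.14 from oocyte to 1-cell (limma adjusted p = 5.85e-05), although the spike scaling gave -0.23, fell by 0.72 ± 0.15 at the 2-cell step (0.000524), rose by 1.98 ± 0.14 at the 8-cell step (1.87e-10) and fell by 1.49 ± 0.14 in blastocysts (4.64e-08); with the spike scaling, the steps to the 2-cell stage and the blastocyst were not called. Its highest mean signal was thus at the 8-cell stage (2025), as for 93058_at of Eif1a.

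Eif5b had 2 tested probe sets that disagreed as well. At the 2-cell step the brighter one changed by -0.34 ± 0.24 (limma adjusted p = 0.264) and the other by -2.03. The brighter one rose by 0.65 ± 0.23 at the 8-cell step (adjusted p = 0.02), but the call did not survive the loss of 2-cell array 1 (adjusted p = 0.0762), of 2-cell array 2 (0.0839) or of 8-cell array 4 (0.0754), and the spike scaling gave 0.03. It fell by 0.66 ± 0.23 in blastocysts (adjusted p = 0.0227), which missed the threshold when 8-cell array 4 (0.0784), blastocyst array 1 (0.124) or blastocyst array 2 (0.117) was left out, and turned to 0.47 with the spike scaling.

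Among the other initiation genes, falls outnumbered rises at the 1-cell step and rises outnumbered falls at the 2-cell step, as over all genes. At the 8-cell step rises outnumbered falls, where falls were the more common over all genes. Of 58 listed genes without Eif1a and Eif1ax, 42 were on the array and 39 were tested. From oocyte to 1-cell 9 rose (23.1%, against 18.0% of 6044 genes) and 12 fell (30.8%, against 20.9%), with a median change of 0.06 against 0.03 for all genes. The spike scaling, which shifted the median of all probe sets by -0.92 here, gave 0 and 26. With it 30 of the 8067 tested probe sets were called higher and 4559 lower, so a fall was common across the array. Of 10 eIF3 subunits, which form the scaffold of the initiation complex, 6 fell (7 with the spike scaling), among them Eif3m (-3.94 ± 0.22, limma adjusted p = 1.67e-11) and Eif3l (-2.50 ± 0.20, 2.89e-09). Eif2b4 of the eIF2B exchange factor (-1.68 ± 0.20) and the cap-binding gene Eif4e2 (-1.55 ± 0.25, and -0.39 at another probe set) fell too.

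At the 2-cell step, where 93058_at of Eif1a was higher and 103708_at overlapped, 17 of the 39 rose (43.6%, against 25.8% of all genes) and 8 fell (20.5%, against 22.8%). Eif2b5, the catalytic subunit of eIF2B, rose by 3.14 ± 0.33 (limma adjusted p = 5.12e-08), and by 1.63 at another probe set. The eIF3 core subunit gene Eif3c rose by 3.09 ± 0.20 and the poly(A)-binding protein gene Pabpc1 by 3.00 ± 0.23. The eIF2 kinase gene Eif2ak1 fell by 2.61 ± 0.29.

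At the 8-cell step all 4 probe sets of eIF1A were higher with the deposited scaling, with no overlap of arrays. The same held for 24.7% of the 8067 tested probe sets. Probe sets 103708_at and 160111_at had passed the filter through the stages where they were high, which favoured their part in this count in advance. With the spike scaling 93358_at changed by 0.05. Of the 39 other genes 24 rose (61.5%, against 26.2% of all genes) and 3 fell (7.69%, against 29.6%). Their median change was 0.72, against -0.07 for all genes. With the spike scaling, which moved the median by -0.52, 9 rose and 6 fell. Over the array this scaling called 852 of the 8067 tested probe sets higher. Its count of lower ones is not given here, so the 6 falls cannot be set against a background. Of the 10 eIF3 genes 8 rose (4 with the spike scaling), led by Eif3d (3.13 ± 0.20, limma adjusted p = 1.59e-11), and of 5 genes of the eIF2 complex and its relatives 4 rose (1 with the spike scaling), among them Eif2s2, eIF2 beta (1.90 ± 0.22, and 2.66 at another probe set). Eif4ebp1 rose by 2.56 ± 0.27 and the ribosome recycling gene Abce1 by 2.20 ± 0.23. The 3 that fell were Eif1b and the eIF2 kinase genes Eif2ak4 (-2.72 ± 0.32) and Eif2ak3 (-1.05 ± 0.24).

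From the 8-cell stage to the blastocyst 5 of the 39 rose (12.8%, against 23.0%) and 14 fell (35.9%, against 20.7%), but the spike scaling gave 21 and 0. With that scaling 4597 of the 8067 tested probe sets were called higher and 201 lower, so a rise was common across the array. The 5 rises became 2 or 3 without any single oocyte or 1-cell array, 2-cell array 2, 8-cell arrays 1, 3 or 4, or blastocyst arrays 1 or 2, and the 14 falls became 9 without 8-cell array 4, blastocyst array 1 or blastocyst array 2. Pabpc4 (-1.65 ± 0.17), Eif6, which holds the large subunit apart (-1.36 ± 0.18), and the cap-binding gene Eif4e (-1.30 ± 0.24) fell, and none of them was called with the spike scaling, while Eif2ak4 rose by 1.41 ± 0.32 (limma adjusted p = 0.00104). Over the whole course 22 rose (56.4%, against 32.4%) and 10 fell (25.6%, against 33.8%), among them Pabpc1 (3.80 ± 0.21), Eif4ebp1 (3.69 ± 0.27) and Eif2b5 (4.17 ± 0.31, and 1.75 at another probe set), with Eif1b at -2.68 ± 0.17. These values are those of the brightest probe set of a gene.

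**Figure D4:**
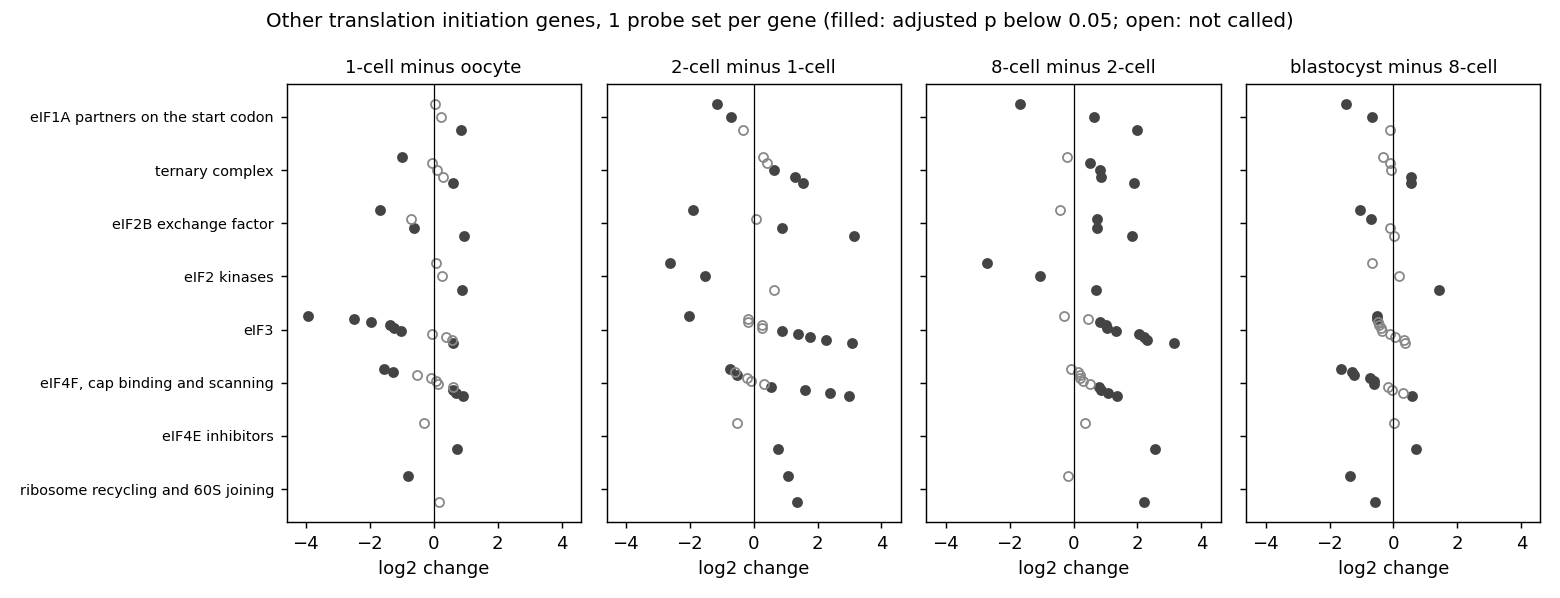
Log2 change of 39 other translation initiation genes, grouped by role, in the 4 comparisons of consecutive stages. Each point is a gene, filled where its limma adjusted p was below 0.05 and open where it was not called. Most points lie right of 0 at 8-cell minus 2-cell, where 24 rose (61.5%, against 26.2% of all genes) and 3 fell (7.69%, against 29.6%). With the spike scaling 9 rose and 6 fell there, and 852 of the 8067 tested probe sets were called higher. At 1-cell minus oocyte eIF3 genes spread to the left.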

How the data were processed

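The deposited table gave 1 linear signal intensity per probe set and array, which the authors had scaled: trimmed to the middle 96%, arrays averaged 149.4 to 149.9. The software and its target value are not given in the sources used here. Medians of arrays lay between 34.05 and 49.15, and the number of arrays limits the precision. Symbols came with the platform's annotation, updated through a RefSeq table by Entrez ID for 10817 of 10833 probe sets with 1 symbol; 396 had several and 1193 none. The 66 control probe sets were left out.

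Stages came from the sample titles. Stage means were fitted to the 17 arrays with limma 3.58.1 in R 4.3.3 (eBayes with an intensity trend, 12 residual degrees of freedom, two-sided, Benjamini-Hochberg within a comparison over 8067 probe sets, called below 0.05), and tested on simulated data. The probe set with the highest mean stood for its gene in lists. The text names up to 4 genes of a role with the largest called changes in a comparison, all partners of eIF1A, and the 4 genes nearest each member by Pearson r. The members, lists, comparisons and alternatives were chosen with earlier results of these data known. Alternatives were other scalings (9 spike probe sets for the spike scaling), offsets, filters, weights, a replicate block and each array left out.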

Additional observations from a re-analysis of the deposited data

Results flagged for a closer look

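The oocyte arrays of Eif1b, a partner of eIF1A, held a value apart from the others: signals of 2680.5, 2786.9 and 2789.8 and then 3335.3. The gap to the highest was 0.833 of the whole range, above the critical value for 4 samples, which chance passes in about 1 of 20 groups. No stage of the 4 eIF1A probe sets was set apart in this way.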

How the results depend on the processing

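The spike scaling moved most values: from oocyte to 1-cell to -1.16 (93058_at), -0.66 (103708_at), -3.03 (93358_at) and -0.82 (160111_at), from 2-cell to 8-cell to 1.14, 2.19 and 0.05 for the first 3 of these, and from 8-cell to blastocyst to 0.46, 1.47, 0.49 and 0.72, a change of sign for all but 103708_at. It gave initiation counts of 0 higher and 26 lower, 5 lower at the 2-cell step, 9 higher and 6 lower at the 8-cell step, and 21 higher and 0 lower in blastocysts, and turned Eif1b (-0.87 and 1.05), Eif5 (-0.23) and Eif5b (-1.05 and 0.47). Over all tested probe sets the same scaling called 30 higher and 4559 lower at the 1-cell step, and 895 lower at the 2-cell step. It called 852 higher at the 8-cell step, where its count of lower ones is not given here. In blastocysts it called 4597 higher and 201 lower. The spike scaling rests on 9 control probe sets. These spikes join a sample at hybridisation, after the 2 rounds of in vitro transcription, so this scaling is no measure of RNA per embryo. The 2-cell change of 93058_at was 4.17 with median centring, 5.35 with an offset of 1 and 3.24 with the median as offset, which also gave 2.24 (103708_at) and 1.27 (160111_at) at the 8-cell step. Rises of initiation genes in blastocysts numbered 2 with quantile normalization, an offset of 1 or no filter, 3 without an intensity trend and 3 with the replicate block, and 2 to 5 with single arrays left out; falls numbered 8 with median centring and 9 to 14 with single arrays left out. Arrays with the same replicate number deviated together at -0.08 to 0.12, so the numbers were not taken as pairs; the block left the gap of Eif1a at 3.80. In all, 439 of 460 alternative values of the 4 probe sets moved by less than 1 SD, 18 moved further and 3 changed sign. Many of the 439 had no room to move, because an array left out at another stage does not enter a change between 2 stages. The count is therefore no measure of how stable the changes were. Signals mostly under 41.1 limit the early stages of 160111_at and 103708_at and the oocyte and 1-cell stages of 93058_at, where neighbouring stages overlapped.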
